A study of Mus musculus with 12 samples.

Results

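D2.OR and D2A1 are mouse mammary cancer cell lines derived from separate tumours of the D2 hyperplastic alveolar nodule. Both were grown in 2D on plastic or in 3D on top of a layer of Matrigel, a basement membrane gel, and D2.OR is the line known to stop dividing in 3D whereas D2A1 goes on growing there. The quantity described here is the interaction of cell line and culture, that is, how far 3D moved a gene from its 2D level in D2.OR, on the log2 scale, minus the same measure in D2A1. Its standard error is given as SE. A positive value means that 3D culture moved a gene further upward, or less downward, in D2.OR than in D2A1. All 12 RNA-seq libraries of the series enter it, with 3 replicates in each of the groups D2.OR 2D, D2.OR 3D, D2A1 2D and D2A1 3D, so each line's own culture response rests on 6 libraries. The replicate number is the batch, and each batch was sequenced in a lane of its own. Neither line was genetically altered or treated with a drug for these libraries. Each line is a single established culture that stands for 1 tumour, several wells were pooled for an RNA extraction, and 3D cells had first to be released from the gel in the cold. The 3D medium contained horse serum, hydrocortisone, cholera toxin and insulin, and the study's dormancy assay gave its 2D cells this medium as well. The description of the RNA libraries refers to the general culture section, which names DMEM high glucose for standard 2D experiments. Which of these media the 2D libraries had is not stated, so 2D and 3D libraries may also differ in medium.

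A cell on plastic spreads and is fed growth signals through stiff contacts, whereas in a soft basement membrane gel it rounds up, its integrins and cytoskeleton signal less, and many lines slow their growth. Genes for ribosomes, DNA replication and mitosis follow growth, genes for lipid oxidation and lysosomes are commonly more active when cells save energy, and cytokines of the NF-κB type mark an inflammatory state. A gene shows an interaction when the lines differ in how such a programme follows the culture, which is a different question from whether the lines differ in level.

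Library totals ranged from 47589611 to 73325069 expected counts (median 61747126), and 16823 of 52550 genes passed the filter on low counts. The batches differed, with 1140 genes between batches 2 and 1 and 1359 between batches 3 and 1 (edgeR adjusted p under 0.05). The library D2A1 2D replicate 1 stood apart from the other D2A1 2D libraries. It had 190 CPM (counts scaled to the library total) of the proliferation gene Mki67 against 117 and 108. For Aldh1a1 it had 51.5 CPM against 4.10 and 6.10, but batch 1 was the highest for this gene in every group. Markers were checked against the labels. The 10 tested markers of luminal mammary epithelium summed to 500 to 1949 CPM in D2.OR and 86 to 225 CPM in D2A1, where Epcam was at or below 0.184 CPM and Krt8 at or below 2.24 CPM. All 11 mesenchymal markers passed the filter and Vim was at 581 CPM or more in every library, although Cdh2 had at most 3 counts in total in each D2A1 group. The defining epithelial markers Epcam, Krt8 and Cdh1 were thus near 0 in D2A1, whereas Krt18 and Cldn3 were expressed. Of 10 leukocyte and 7 endothelial markers, 2 and 3 passed the filter, with sums of 1.53 to 19.2 CPM and 0.423 to 1.93 CPM, and Tyrobp had no count in any library. In bulk RNA, fewer cells of a type and less RNA per cell cannot be told apart.

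In the interaction, 4 genes had an adjusted p under 0.05 in edgeR's quasi-likelihood test, 3 positive (0.0178%) and 1 negative (0.00594%), or 0.0238% of the genes tested in all, although 2997 genes had an unadjusted p under 0.05. The likelihood-ratio test of DESeq2 called 944 genes (5.61% of those tested), 560 positive and 384 negative, and these included the 4. Behind the DESeq2 calls the fitted responses mostly had opposite signs, which choosing genes by the difference of the responses favours. Of the 560 positive genes, 473 were higher in 3D in D2.OR and lower in 3D in D2A1, 36 were higher in both lines and 51 lower in both. Of the 384 negative genes, 335 were lower in 3D in D2.OR and higher in D2A1, 31 were higher in both and 18 lower in both. In edgeR's test of each line, 41 of the 473 passed in D2.OR and 90 in D2A1, and 30 and 72 of the 335. The direction was the same in each of the 3 batches for 922 of the 944 and for 41.6% of all genes, but it comes from the same contrast as the calls and adds no independent support. Within the lines, the culture response of D2.OR held 273 edgeR calls (1.62%), of which 141 (0.838%) were upward in 3D and 132 (0.785%) downward. That of D2A1 held 586 (3.48%), with 230 (1.37%) upward and 356 (2.12%) downward. The split depended on the scaling. In D2.OR it was 160 upward and 73 downward with library totals alone and 142 and 75 with limma on log2(TPM + 0.1). In D2A1 it was 195 and 566 with limma on log2(TPM + 1) and 313 and 822 on log2(TPM + 0.1). Both responses were called for 39 genes (0.232%), with the same sign for 33 and opposite signs for 6 (0.0357%).

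**Figure D1:**
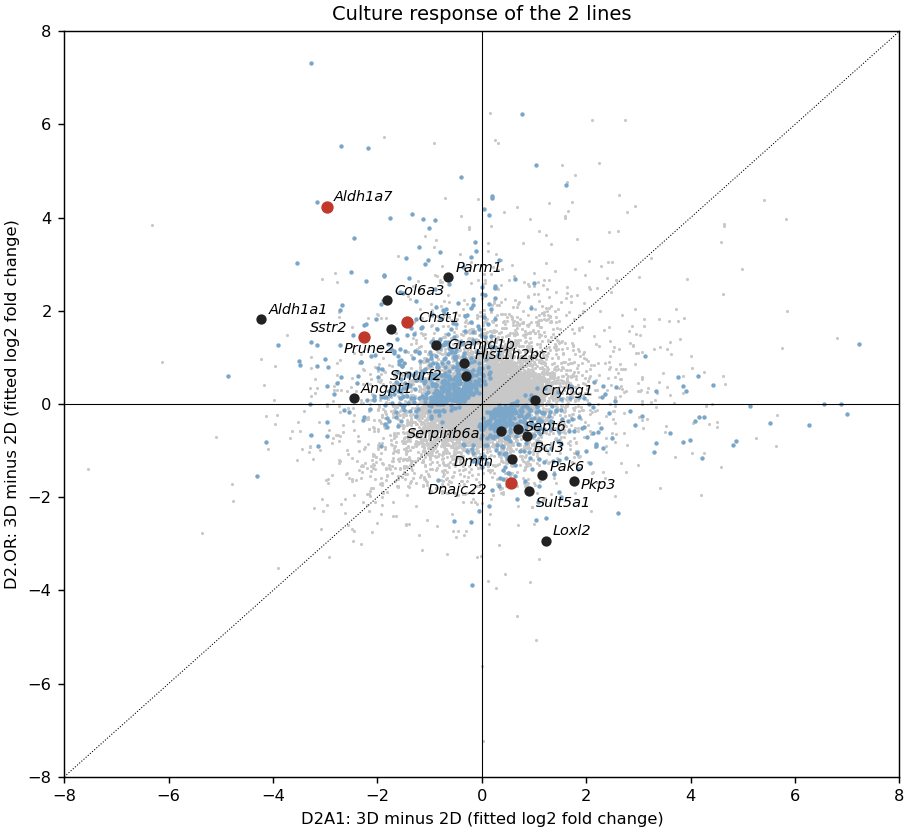
Fitted log2-fold change (3D–2D) in D2A1 (horizontal axis) and D2.OR (vertical axis). Grey points are the genes tested, blue points the genes called by DESeq2 for the interaction, black points the named genes and red points the 4 genes called by edgeR; the dotted line marks equal responses, and 3 genes lie outside the axes. Most blue points lie in the upper left and lower right of the plot, where the fitted responses have opposite signs. The blue points were chosen by the interaction, which favours these places.

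The 6 genes called in both lines with opposite signs were Aldh1a7, Chst1, Gramd1b, Sstr2 and Col6a3, which rose in D2.OR and fell in D2A1, and Pak6, which fell in D2.OR and rose in D2A1. Chst1, on chromosome 2 (92599707 to 92615250, GRCm38, plus strand), encodes a sulfotransferase of the Golgi that adds sulfate to keratan and related sugars. Its level in D2.OR was 0.0577, 0.295 and 0.199 CPM in 2D and 0.166, 1.01 and 0.725 CPM in 3D (batches 1, 2 and 3), that is 4 to 15 and 10 to 64 counts. In D2A1 it was 11.3, 50.1 and 46.7 CPM in 2D and 4.31, 20.1 and 15.6 CPM in 3D. Within every batch Chst1 was higher in 3D in D2.OR and lower in 3D in D2A1, although across batches the 2D and 3D ranges overlapped in both lines. The interaction was 2.52, 2.99 and 3.28 in the batches and 3.18 in the fit (SE 0.22, edgeR adjusted p = 0.00194). The D2.OR counts were few beside those of D2A1, and 9 of the 8909 genes with 500 or more counts in every D2A1 library had 3 or fewer in every D2.OR library. Whether D2.OR counts of Chst1 came from its own cells was not tested.

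Aldh1a7 and Aldh1a1 encode aldehyde dehydrogenases that oxidise retinal and other aldehydes, and they lie side by side on chromosome 19 (20692953 to 20727562 on the minus strand and 20492715 to 20643462 on the plus strand). Aldh1a7 had 3.23, 0.0786 and 0.0598 CPM in D2.OR 2D and 78.5, 1.71 and 0.520 CPM in D2.OR 3D. In D2A1 it had 35.2, 1.40 and 1.76 CPM in 2D and 8.58, 0.0772 and 0.176 CPM in 3D. Batch 1 was the highest in all 4 groups, and the lines still moved in opposite directions in each batch, with interactions of 6.62, 7.66 and 5.67 and a fitted value of 7.21 (SE 0.79, edgeR adjusted p = 0.0318). Aldh1a1 had a fitted interaction of 6.05 (SE 0.76, edgeR adjusted p = 0.0539), with 5.41, 5.55 and 6.12 in the batches. In D2A1 it fell from 51.5, 4.10 and 6.10 CPM to 7.69, 0.139 and 0.132 CPM (-4.23 on the log2 scale, SE 0.56, edgeR adjusted p = 0.0184). In D2.OR it was 5.63, 0.275 and 0.339 CPM in 2D and 36.1, 0.569 and 0.662 CPM in 3D, which did not pass (edgeR adjusted p = 0.135). Of the 2017 stretches of 50 bases in the Aldh1a7 transcript, 151 (7.49%) also occur in an Aldh1a1 transcript, and how RSEM divided such reads was not tested.

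The sequences around the starts of the pair are shown because both genes moved in the same directions. These are RefSeq promoter windows (GRCm38.p6), from 120 bases before to 50 after the start, at chr19:20601848-20602017 on the plus strand for Aldh1a1 and chr19:20727507-20727676 on the minus strand for Aldh1a7. The Aldh1a1 window was chosen among its RefSeq windows as the one most like that of Aldh1a7, so the likeness is not a finding. Capitals mark the positions at which the pair differ, 17 of 170 without gaps.
Aldh1a1: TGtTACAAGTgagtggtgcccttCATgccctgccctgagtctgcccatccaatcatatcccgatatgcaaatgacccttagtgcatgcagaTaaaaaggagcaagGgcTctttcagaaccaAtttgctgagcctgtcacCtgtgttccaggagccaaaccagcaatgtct
Aldh1a7: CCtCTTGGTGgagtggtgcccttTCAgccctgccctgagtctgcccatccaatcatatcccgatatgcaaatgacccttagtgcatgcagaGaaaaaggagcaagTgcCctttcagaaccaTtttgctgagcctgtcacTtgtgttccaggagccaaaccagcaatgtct

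Sstr2 encodes a somatostatin receptor that lowers cAMP (chromosome 11, 113619342 to 113626028, plus strand). It had 0.577, 0.648 and 0.299 CPM in D2.OR 2D and 1.48, 1.63 and 0.930 CPM in D2.OR 3D, and the groups did not overlap. In D2A1 it had 0.688, 1.06 and 0.457 CPM in 2D and 0.199, 0.185 and 0.0735 CPM in 3D, also without overlap. The fitted interaction was 3.70 (SE 0.37, edgeR adjusted p = 0.0271), on 5 to 103 counts per library. Its RefSeq window is shown because the 3D medium contained cholera toxin, which raises cAMP, and TGACG is the core of the cAMP response element. Capitals mark TGACG on either strand, with 2 overlapping matches, in the window chr11:113619177-113619376 on the plus strand (GRCm38.p6). TGACG on either strand occurs in 29.4% of the 14213 windows of tested genes and in 21 of the 40 windows of the cAMP and CREB target list (52.5%). AGGTCA and TGTTCT, core letters of sites for several nuclear receptors and for the glucocorticoid receptor, were searched as well and are not in this stretch.
Sstr2: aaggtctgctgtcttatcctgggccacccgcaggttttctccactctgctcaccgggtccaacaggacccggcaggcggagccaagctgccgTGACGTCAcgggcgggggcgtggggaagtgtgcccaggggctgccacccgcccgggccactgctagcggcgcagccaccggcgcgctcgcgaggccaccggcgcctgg

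Dnajc22, a gene for a membrane protein of the DnaJ co-chaperone family, was the negative call (chromosome 15, 99093170 to 99104737, plus strand). It had 5.61, 7.03 and 8.19 CPM in D2.OR 2D and 1.77, 2.09 and 2.52 CPM in D2.OR 3D. In D2A1 it had 9.20, 8.97 and 8.05 CPM in 2D and 9.87, 14.9 and 14.9 CPM in 3D. It fell in D2.OR (-1.70 on the log2 scale, SE 0.18, edgeR adjusted p = 0.00662) and its D2A1 value of 0.56 (SE 0.17) did not pass, so the interaction of -2.27 (SE 0.25, edgeR adjusted p = 0.0318) came mainly from D2.OR. Of these 4 genes, Chst1 kept an adjusted p under 0.05 in edgeR with any of the 12 libraries left out. Without batch 2 it had 0.847 and without batch 3 0.409, and without the batch block 0.292, where none of the 4 passed. Aldh1a7 did not pass when any of 8 single libraries was left out, and Sstr2 and Dnajc22 when any of 9 was.

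**Figure D2:**
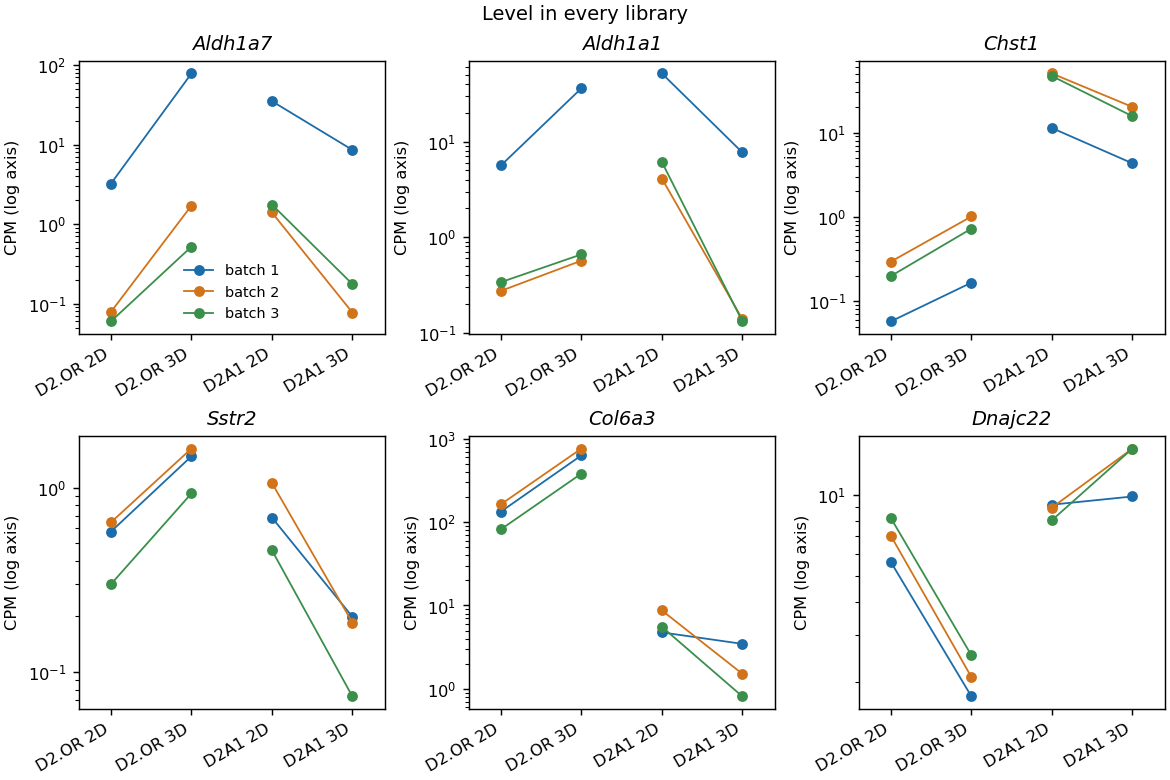
TMM-normalised CPM (log axes) of 6 genes in the 12 libraries, with a line joining the 2D and 3D library of a batch and colours for the batches. The lines slope upward in D2.OR and downward in D2A1 for Aldh1a7, Aldh1a1, Chst1, Sstr2 and Col6a3, and the other way for Dnajc22.

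Col6a3, which encodes a chain of the microfibril collagen VI (chromosome 1, 90765923 to 90843971, minus strand), was at 134, 164 and 82.1 CPM in D2.OR 2D and 634, 765 and 383 CPM in D2.OR 3D. In D2A1 it was at 4.75, 8.71 and 5.54 CPM in 2D and 3.46, 1.51 and 0.809 CPM in 3D. The groups of each line did not overlap, and the interaction was 4.05 (SE 0.51, edgeR adjusted p = 0.0539; DESeq2 adjusted p = 7.88e-11). Gramd1b, a gene for a carrier of cholesterol between membranes, rose in D2.OR from 0.458 to 0.750 CPM to 1.29 to 2.04 CPM, and fell in D2A1 from 19.9 to 33.3 CPM to 12.1 to 15 CPM. Its interaction was 2.12 (SE 0.29). Pak6, a p21-activated kinase gene of low expression, had -2.69 (SE 0.36), with 0.697 to 1.14 CPM in D2.OR 2D, 0.237 to 0.348 CPM in D2.OR 3D, 0.358 to 0.910 CPM in D2A1 2D and 1.07 to 1.72 CPM in D2A1 3D. The edgeR adjusted p was 0.0665 for both genes.

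Among positive genes with 5 CPM or more in a group and 1 sign in all batches, a condition of the choice and not a finding, the other genes of smallest p were Hist1h2bc, Angpt1, Smurf2, Prune2 and Parm1. Their edgeR adjusted p lay between 0.0665 and 0.0683. The angiopoietin gene Angpt1, which acts on the endothelial receptor Tie2, fell in D2A1 from 16.9, 24.7 and 13.3 CPM to 4.67, 3.32 and 2.04 CPM. In D2.OR it was 156 to 213 CPM in 2D and 188 to 224 CPM in 3D, so the interaction of 2.57 (SE 0.36) came from D2A1. Smurf2, a ubiquitin ligase that limits TGF-β signalling, showed the reverse balance. It rose in D2.OR from 67.9, 72.1 and 72.8 CPM to 116, 104 and 101 CPM, while D2A1 had 65.7 to 75.3 CPM in 2D and 56.2 to 58.2 CPM in 3D (interaction 0.90, SE 0.13). The histone gene Hist1h2bc also rose in D2.OR (0.88 on the log2 scale, SE 0.12), as did Parm1 (2.72, SE 0.37), whereas Prune2 fell in D2A1 (-1.74, SE 0.32).

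The negative genes chosen in the same way were Sept6, Bcl3, Crybg1, Dmtn, Sult5a1, Pkp3, Loxl2 and Serpinb6a, with edgeR adjusted p between 0.0665 and 0.0716. Bcl3, a nuclear partner of NF-κB p50 and p52, had 16.6, 48.9 and 54.4 CPM in D2.OR 2D and 12, 25.3 and 34.2 CPM in D2.OR 3D. In D2A1 it rose from 9.43, 28.2 and 33.7 CPM to 15.3, 62.7 and 53.8 CPM, giving an interaction of -1.54 (SE 0.22). Loxl2, a lysyl oxidase that crosslinks collagen, fell in D2.OR from 7.78, 7.27 and 9.46 CPM to 0.746, 1.04 and 1.59 CPM. Its D2A1 levels stayed between 0.263 and 1.61 CPM, and the interaction was -4.15 (SE 0.63). The desmosome gene Pkp3 rose in D2A1 from 0.633 to 0.748 CPM to 1.57 to 3.12 CPM, with 6.58 to 13.3 CPM in D2.OR 2D and 1.94 to 4.13 CPM in D2.OR 3D (interaction -3.42, SE 0.52). The septin gene Sept6 and Crybg1 rose in D2A1, and Dmtn, Sult5a1 and Serpinb6a fell in D2.OR. The same rule also chose the positive genes Col6a3, Aldh1a1 and Gramd1b, described above. All 16 genes were called by DESeq2 and by none of the edgeR fits with batch 2, batch 3 or the block left out.

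Genes for cytosolic ribosomal proteins, the structural parts of the ribosome, were the list, of 28 function lists examined, in which every tested member had the same sign in every batch. All 79 tested members (of 82) were negative in each of the 3 batches, where 20.9% of all genes were, and the median was -0.54 (-0.70, -0.54 and -0.40 in batches 1, 2 and 3) against -0.01 over all genes. No member passed in edgeR (smallest adjusted p 0.0988), 65 of 79 had an unadjusted p under 0.05 (17.8% of all genes), and DESeq2 called 20 (2.28% of all genes in that direction). Without batch 1, edgeR called 46 of the 79 negative (8.64% of all genes). The mean log2 CPM of the 79 genes was 8.59, 8.64 and 8.63 in D2A1 2D and 8.78, 9.09 and 9.09 in D2A1 3D, higher in 3D in every batch. In D2.OR it was 8.86, 8.80 and 8.75 in 2D and 8.34, 8.72 and 8.82 in 3D, lower in 3D in batches 1 and 2 and higher in batch 3. Rpl41 had the smallest p. It rose in D2A1 from 405, 273 and 294 CPM to 523, 614 and 612 CPM (0.85 on the log2 scale, SE 0.17, edgeR adjusted p = 0.0394), with 758, 691 and 651 CPM in D2.OR 2D and 505, 614 and 610 CPM in D2.OR 3D. Its interaction was -1.13 (SE 0.23). Rps14 had -0.73 (SE 0.15), with 445 to 539 CPM and 530 to 737 CPM in D2A1 and 540 to 565 CPM and 381 to 484 CPM in D2.OR. In D2A1, Rps26 and Rps29 also rose.

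These transcripts are short, and gene length moved with the interaction in the same direction. Over 10 groups of near equal size of protein-coding genes with a mean of at least 5 CPM, ordered by length, the median interaction went from -0.17 in the shortest (204 to 1114 bases) to 0.14 in the longest, and in every batch the shortest group was below the longest. The 802 other genes of up to 1036 bases had a median of -0.15, and 37.5% of them were negative in all batches. With an offset for gene length, chosen after seeing the data, the ribosomal median was -0.34. The annotation names 274 pseudogenes after 59 of these genes, which took 4.5% of the joint counts, so how RSEM shared reads could move single genes. Ribosomal protein mRNAs usually begin with a run of pyrimidines through which growth signals control their translation. A run of at least 8 C or T bases on the coding strand within 50 bases of the RefSeq start is in 56 of 70 windows of the list (59 of 79 genes had one or more windows) and in 32.7% of all 14213 windows. Stretches from 50 bases before to 50 after the start are shown for Rpl41 (chr10:128549119-128549218, minus strand) and Rps26 (chr10:128626457-128626556, minus strand), which rose in D2A1, with such runs in capitals.
Rpl41: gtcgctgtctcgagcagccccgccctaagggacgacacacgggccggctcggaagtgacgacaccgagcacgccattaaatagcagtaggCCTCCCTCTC
Rps26: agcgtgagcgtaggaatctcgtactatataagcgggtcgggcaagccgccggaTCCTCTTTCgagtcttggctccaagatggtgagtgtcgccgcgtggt

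Other parts of the protein synthesis and turnover machinery had smaller medians of the same sign. Translation factors had -0.26 with 18 of 37 negative in all batches, the proteasome -0.20 with 26 of 34, splicing factors -0.31 with 34 of 65, and mitochondrial ribosomal proteins -0.17 with 30 of 77, though their median in batch 2 was 0.04. Over all genes, 20.9% were negative in all batches. With the offset for gene length the proteasome median was -0.13 and that of mitochondrial ribosomal proteins -0.06. In these lists DESeq2 called at most 2 negative members each, near the 2.28% of all genes, and 1 positive splicing factor. The edgeR fit without batch 1 called 26 of 65 splicing factors, 8 of 37 translation factors, 4 of 34 proteasome genes and 7 of 77 mitochondrial ribosomal proteins negative, against 8.64% of all genes. The negative DESeq2 calls were Eif3i, a subunit of the initiation factor eIF3 (-0.60, SE 0.14), Snrpe (-0.70, SE 0.20), Hnrnpa1 (-0.79, SE 0.24) and Mrpl40 (-0.70, SE 0.19). The translation elongation gene Eef1b2 had -0.62, and the proteasome genes Psmd10 and Psma7 had -0.50 and -0.46. Ribosome biogenesis genes were near 0 in batches 1 and 2 (0.04 and 0.11) and at -0.85 in batch 3, with Npm1 at -0.46 and Polr1e at -0.45. The nuclear genes of the respiratory chain had a median of -0.03, with Ndufb8 at -0.50 and Ndufs6 at -0.28, and DESeq2 called none.

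The cell cycle lists depended on the batch. The median interaction of 54 G2/M genes, which act in mitosis, was 0.01, -0.62 and -1.47 in batches 1, 2 and 3 (-0.62 in the fit), and that of 43 S phase genes, which act in DNA replication, 0.35, -0.70 and -1.38 (-0.51 in the fit). Negative in all batches were 24 of the 54 G2/M and 7 of the 43 S phase genes, where 20.9% of all genes were. No member passed in edgeR, and DESeq2 called 1 in each list, Psrc1 and Pold3, near the 2.28% of all genes. Without batch 1, edgeR called 41 of the G2/M and 35 of the S phase genes, all negative, where 8.64% of all genes were called negative. The difference lay in D2A1, whose mean G2/M level was 6.12, 5.87 and 5.57 log2 CPM in 2D and 6.35, 6.93 and 7.04 in 3D. In D2.OR it was 5.23, 5.75 and 6.07 in 2D and 5.46, 6.14 and 6.14 in 3D, not lower in 3D in any batch. Mki67, the gene of the proliferation marker Ki67, followed this order. It had 112, 222 and 264 CPM in D2.OR 2D and 190, 319 and 308 CPM in D2.OR 3D, and 190, 117 and 108 CPM in D2A1 2D and 233, 355 and 405 CPM in D2A1 3D (interaction -0.69, SE 0.48, edgeR adjusted p = 0.464). Without batch 1 the value was -1.38 (edgeR adjusted p = 0.00385). Lmnb1, the gene of lamin B1, which is lost in senescence, had -0.69 (SE 0.52) with 0.35, -0.93 and -1.80 in the batches. Its level was higher in 3D in every batch in both lines. D2.OR had 44, 71.4 and 93.2 CPM in 2D and 67.4, 113 and 99.2 CPM in 3D. D2A1 had 103, 50.1 and 46.4 CPM in 2D and 123, 151 and 172 CPM in 3D. Psrc1, a spindle gene, rose in D2A1 from 12.6, 14.1 and 10.1 CPM to 20.1, 24.2 and 23.7 CPM, with 4.29 to 5.26 CPM and 3.80 to 4.76 CPM in D2.OR (interaction -0.98, SE 0.22, edgeR adjusted p = 0.11). Ckap5 had -0.50 and Pold3 -0.56.

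Promoters of genes that peak in G2 and M often carry CCAAT boxes and the element TTTGAA, through which repressor and activator complexes time their expression. In the RefSeq windows of 250 bases before to 50 after the start, TTTGAA on either strand is in 34 of 52 G2/M windows (65.4%) and in 12.2% of all windows, and CCAAT in 39 of 52 (75%) and 37.6%. In S phase windows the shares were 14.3% and 65.7%. Ckap5 (chr2:91526672-91526811) and Psrc1 (chr3:108383714-108383853), both on the plus strand, are shown up to 50 bases after the start, the latter for its DESeq2 call and the former as the member with the next smallest p, with CCAAT or TTTGAA in capitals on either strand, and likewise a related element, TTCGAA.
Ckap5: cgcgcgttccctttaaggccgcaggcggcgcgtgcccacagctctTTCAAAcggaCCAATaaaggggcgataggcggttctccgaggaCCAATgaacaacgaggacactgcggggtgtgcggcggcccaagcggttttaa
Psrc1: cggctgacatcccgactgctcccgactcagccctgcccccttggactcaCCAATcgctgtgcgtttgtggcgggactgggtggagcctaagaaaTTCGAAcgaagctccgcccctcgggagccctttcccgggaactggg

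Among 19 tested cell cycle inhibitors the median was 0.18, and 4 were positive and 2 negative in all batches, where 20.7% and 20.9% of all genes were. Gadd45a, a stress-induced growth arrest gene, fell in D2A1 from 22.1, 127 and 58.7 CPM to 13.7, 12.9 and 14.7 CPM and was 16.2 to 20.8 CPM in D2.OR (interaction 2.04, SE 0.59, edgeR adjusted p = 0.159; DESeq2 adjusted p = 0.0189). Cdkn1a, which encodes p21, had 83.2, 22.3 and 28.6 CPM in D2.OR 2D and 105, 69.9 and 64.3 CPM in D2.OR 3D, and its interaction was -0.05 in batch 1 and 2.01 and 1.5 in batches 2 and 3. For Cdkn1b, which encodes p27, the values were -0.72, 0.40 and 0.80, and for Cdkn2a, the p16 locus, -0.28, 0.24 and 0.15, with fitted interactions of 0.18 and 0.03 and edgeR adjusted p of 0.758 and 0.921. Their SEs were 0.28 and 0.13, and a p that misses the threshold does not show equal responses. Without batch 1, Cdkn1b had 0.61 (edgeR adjusted p = 0.0461) and Cdkn1a 1.76 (edgeR adjusted p = 0.00312), and Cdkn2a had 0.19 and did not pass. The Cdkn1b level was lower in 3D in every batch in D2.OR (95.3, 81.4 and 81.8 CPM to 68.8, 73.3 and 71.7 CPM). In D2A1 it was higher in 3D in batch 1 and lower in batches 2 and 3 (74.1, 107 and 133 CPM to 88.3, 72.5 and 66.9 CPM).

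**Figure D3:**
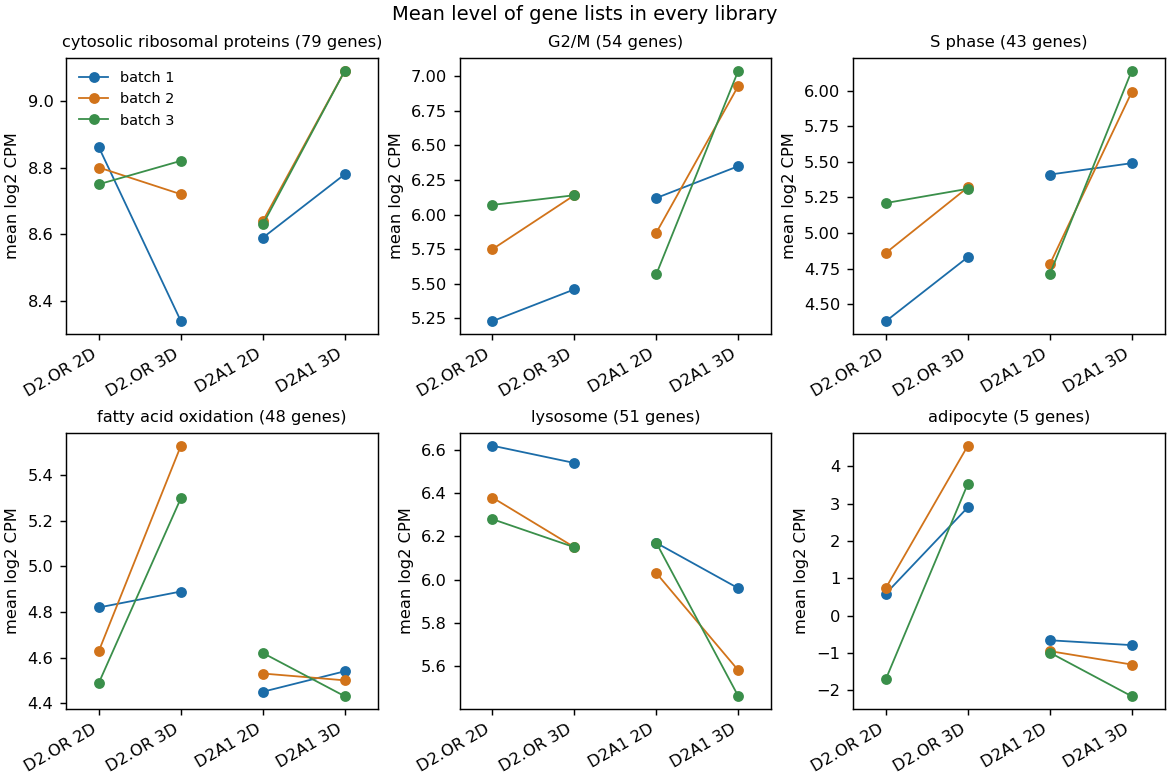
Mean log2 CPM over the tested members of 5 function lists and of the adipocyte markers in the 12 libraries, with a line joining the 2D and 3D library of a batch. In batches 2 and 3 the G2/M and S phase lists are far higher in D2A1 3D than in D2A1 2D, whereas in batch 1 D2A1 2D already lies near D2A1 3D.

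Secreted factors associated with senescence, which include inflammatory cytokines, chemokines and growth factors, had a median interaction of -0.74 over 47 tested genes. By batch it was 0.25, -1.25 and -1.54, and 18 members were negative and 7 positive in all batches (20.9% and 20.7% of all genes). In D2A1, edgeR called 8 members higher in 3D (1.37% of all genes) and 2 lower, and in D2.OR it called none. The summed level of the list was nonetheless lower in 3D in D2A1 in every batch (10706, 20225 and 16920 CPM to 7202, 12234 and 9065 CPM). In D2.OR the sum was higher in 3D in batch 1 and lower in batches 2 and 3 (10835, 21546 and 23874 CPM to 15443, 13966 and 17166 CPM). DESeq2 called 9 negative and 2 positive interactions (2.28% and 3.33% of all genes). Il6, the interleukin of the acute phase, rose in D2A1 from 0.142, 1.85 and 1.21 CPM to 0.284, 34.9 and 27.1 CPM (3.85 on the log2 scale, SE 0.66, edgeR adjusted p = 0.0331). In D2.OR it had 3.82, 42.5 and 48.5 CPM in 2D and 2.35, 20.3 and 29.1 CPM in 3D, giving an interaction of -4.68 (SE 0.84, edgeR adjusted p = 0.0892). The neutrophil chemokine genes Cxcl1 and Cxcl5 also rose in D2A1. Cxcl5 went from 4.39, 49.7 and 24.8 CPM to 23.8, 685 and 686 CPM, whereas D2.OR had 201, 896 and 998 CPM in 2D and 352, 664 and 951 CPM in 3D. In 3D the level of D2A1 thus came near that of D2.OR in batches 2 and 3 and not in batch 1. Csf3, which encodes the granulocyte growth factor G-CSF, had 0.0202, 0.520 and 0.352 CPM in D2A1 2D and 0.383, 77.7 and 61.0 CPM in D2A1 3D, with 0.269 to 1.18 CPM in D2.OR. Il1a had no count in D2A1 2D and 4, 59 and 120 counts in D2A1 3D. Csf1, the macrophage growth factor, went the other way. It fell in D2A1 from 304, 219 and 172 CPM to 219, 125 and 108 CPM, with 154, 115 and 94.1 CPM in D2.OR 2D and 228, 145 and 96.9 CPM in D2.OR 3D (interaction 0.96, SE 0.16, edgeR adjusted p = 0.0797). Mif, a small cytokine gene, had -1.07 (SE 0.18) and rose in D2A1. Il6, Il1a, Cxcl1, Cxcl5 and Csf3 were named after their values were seen.

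Interferon-stimulated genes had opposite signs in batch 1 and in the other batches. Their median interaction over 44 genes by batch was -0.93, 0.98 and 1, and 2 members were positive and 1 negative in all batches (20.7% and 20.9% of all genes). The median response to 3D was -1.20 in D2.OR and -1.44 in D2A1, and edgeR called 2 members lower in D2.OR (0.785% of all genes) and 3 lower in D2A1 (2.12%). In D2A1 the mean log2 CPM went from 7.05 to 6.70 in batch 1, from 6.01 to 4.02 in batch 2 and from 6.26 to 3.78 in batch 3. Without batch 1, edgeR called 27 of 44 genes positive (9.17% of all genes). Ifi27 differed from the rest of the list and rose in D2.OR (37.2, 93.4 and 49.7 CPM to 111, 141 and 116 CPM; interaction 1.18, SE 0.31, edgeR adjusted p = 0.146). Nlrc5, a regulator of MHC class I genes, fell in D2A1 and had an interaction of 0.71.

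Fatty acid oxidation genes were positive in batches 2 and 3 and not in batch 1, with medians of -0.17, 0.71 and 0.69 over 48 genes (0.44 in the fit). DESeq2 called 7 positive (3.33% of all genes) and 1 negative (2.28%), Acsl5. Without batch 1, edgeR called 26 of the 48 positive (9.17% of all genes) and 2 negative, against none over all batches. The positive calls included Ppara, Acsl1, Mgll, Pnpla2, Acad11 and Hsd17b4. Mgll, a lipase that frees fatty acids from monoglycerides, rose in D2.OR from 0.130, 0.884 and 0.0797 CPM to 3.25, 23.0 and 9.36 CPM (5.14 on the log2 scale, SE 0.67, edgeR adjusted p = 0.012), with 0.141 to 0.283 CPM and 0.279 to 0.618 CPM in D2A1. Its interaction was 4.11 (SE 0.97, edgeR adjusted p = 0.12). Acsl1, which activates long-chain fatty acids, rose in D2.OR from 25.4, 40.9 and 32.1 CPM to 46.1, 348 and 159 CPM and was 23.4 to 37.2 CPM in D2A1. Pnpla2, the lipase that opens triglyceride breakdown, had 60.3, 35.8 and 34 CPM in D2.OR 2D and 54.3, 229 and 116 CPM in D2.OR 3D, with an interaction of -0.08 in batch 1 and 3.73 and 3.25 in batches 2 and 3. Ppara, the nuclear receptor that drives fatty acid oxidation, rose in D2.OR but at low level (0.0797 to 0.173 CPM to 0.398 to 0.457 CPM, against 2.26 to 3.32 CPM in D2A1 2D and 1.59 to 2.55 CPM in D2A1 3D; interaction 2.30, SE 0.40, edgeR adjusted p = 0.0892). Pdk4, which shuts glucose carbon out of the mitochondria, and the fatty acid carrier gene Cd36 rose in D2.OR as well, but both were close to 0 in D2A1, at or below 0.128 CPM, so their interactions carry SEs of 1.10 and 2.27. AGGTCA, the core letters of sites for the PPAR family, is in 16.3% of the 43 windows of the list and in 12.8% of all.

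In D2.OR, 3 of the 5 tested adipocyte markers rose in 3D as well (0.838% of all genes). The summed level of the 5 tested markers (of 7) was 5.46 to 74.8 CPM in D2.OR 2D and 152 to 533 CPM in D2.OR 3D, and 51.6 to 133 and 8.12 to 116 CPM in D2A1. Fabp4, a fatty acid carrier of fat cells, rose in D2.OR from 3.17, 11.9 and 1.97 CPM to 23.1, 191 and 49.8 CPM and had 5.12 to 14.8 CPM in D2A1 (interaction 4.83, SE 0.99, edgeR adjusted p = 0.0988). The lipid droplet coat genes Plin1 and Cidec rose in D2.OR too, with 5 to 68 counts of Plin1 in 2D and 341, 4697 and 1433 counts in 3D. In D2A1, Plin1 had at most 5 counts and Cidec at most 4 in a library, so the fitted interactions of these genes rest on a line without expression. Plin4 had 65.7, 17.2 and 3.33 CPM in D2.OR 2D and 119, 258 and 112 CPM in D2.OR 3D. In D2A1 it had 118, 43.4 and 87.1 CPM in 2D and 108, 5.95 and 3 CPM in 3D. Its interaction was 0.99, 6.76 and 9.90 in the batches and 6.01 in the fit (SE 1.65, edgeR adjusted p = 0.152, DESeq2 adjusted p = 0.025). The hormone gene Lep had 409 counts over the 3 libraries of D2.OR 2D and 243 over those of D2.OR 3D, and did not pass. The defining hormone gene Adipoq had 107 counts over the 3 libraries of D2.OR 3D and 6 or fewer in each other group, and failed the filter. The part of these markers in the fatty acid results was not tested.

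Sterol synthesis genes, which follow cellular cholesterol, had medians of 0.13, -1.37 and -0.83 in batches 1, 2 and 3. Sqle had 0.14, -0.96 and -0.80 and Sc5d 0.07, -1.21 and -0.95, and no member was called by DESeq2 or by edgeR over all batches. Without batch 1, edgeR called 15 of the 24 genes negative (8.64% of all genes), Sc5d and Sqle among them. In D2A1 2D, replicate 1 again lay above the others, with 345 CPM of Sqle against 150 and 193 CPM. For fatty acid synthesis the list median was 0.22 (-0.20, 0.18 and 0.29 in the batches), whereas Scd2 and Elovl6 were negative in every batch. Scd2, a stearoyl-CoA desaturase, fell in D2.OR from 2142, 2576 and 2688 CPM to 1158, 1049 and 1112 CPM (-1.17 on the log2 scale, SE 0.18, edgeR adjusted p = 0.0215), while D2A1 had 1712 to 2785 CPM in 2D and 1821 to 2376 CPM in 3D. The interaction was -1.10 (SE 0.25) for Scd2 and -0.99 (SE 0.22) for Elovl6, an elongase.

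Lysosomal genes, which serve breakdown and recycling, were positive in every batch, with medians of 0.18, 0.25 and 0.48 over 51 genes (0.34 in the fit), and 26 were positive in all batches against 20.7% of all genes. In D2A1, edgeR called 15 of the 51 genes lower in 3D (2.12% of all genes) and none higher. In D2.OR it called 1, Atp6v0a1, a subunit of the proton pump that acidifies lysosomes. This gene rose from 66.6, 61.1 and 55.8 CPM to 110, 91.6 and 88.0 CPM in D2.OR and was 39.9 to 61.5 CPM and 38.8 to 50.5 CPM in D2A1 (interaction 0.83, SE 0.13, edgeR adjusted p = 0.0721). The cholesterol exporter gene Npc1 fell in D2A1 from 74.8, 70.3 and 81.7 CPM to 60.4, 42.2 and 44.7 CPM, with 55.0 to 66.8 CPM and 58.2 to 75.4 CPM in D2.OR (interaction 0.74, SE 0.15). Glb1, the gene of lysosomal β-galactosidase, fell in D2A1 from 63.4, 65.5 and 74.6 CPM to 55.0, 37.4 and 31.7 CPM. In D2.OR it had 99.3, 97.9 and 86.2 CPM in 2D and 76.9, 64.7 and 70.7 CPM in 3D, which did not pass in edgeR (adjusted p = 0.231), and its interaction was 0.32 (SE 0.23, edgeR adjusted p = 0.48).

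Insulin and PI3K signalling had a median of 0.25 over 42 genes, with 0.14, 0.39 and 0.26 in the batches. In all batches 19 genes were positive and 4 negative (20.7% and 20.9% of all genes). Insr, the insulin receptor gene, fell in D2A1 from 95.5, 115 and 110 CPM to 58.1, 58.4 and 58.3 CPM, without overlap. In D2.OR it had 137, 104 and 94.9 CPM in 2D and 168, 127 and 104 CPM in 3D, and the interaction was 1.12 (SE 0.23, edgeR adjusted p = 0.101). Mtor, the kinase that couples nutrients to growth, fell in D2A1 from 234, 338 and 350 CPM to 142, 130 and 108 CPM and was 82.7 to 118 CPM in D2.OR (interaction 1.01, SE 0.24). Glycolysis and hypoxia genes were negative, with a median of -0.36 over 37 genes and -0.29, -0.74 and -0.19 in the batches. DESeq2 called 7 negative members (2.28% of all genes) and 1 positive (3.33%), Adm, and the negative ones were the glycolytic enzymes Pfkl, Tpi1, Gapdh, Pgk1, Eno1 and Ldha and the carbonic anhydrase gene Car9. Gapdh had 922, 1150 and 1177 CPM in D2.OR 2D and 554, 801 and 983 CPM in D2.OR 3D, and rose in D2A1 from 1409, 1425 and 1464 CPM to 1813, 2640 and 2533 CPM (interaction -1.17, SE 0.20, edgeR adjusted p = 0.0892). Tpi1 had -0.95 (SE 0.16) and fell in D2.OR, and Ldha, which makes lactate, had -0.99 (SE 0.22) and rose in D2A1. Eno1 had -1.11 (SE 0.32). Gapdh is often taken as a constant reference gene, and in these libraries its fitted response had opposite signs in the lines.

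The fitted interaction medians of keratins, junction genes and luminal markers were negative. The median culture response was -0.46 in D2.OR and 0.00 in D2A1 for integrins and junctions, and -1.20 and 0.29 for the luminal markers. The 6 tested basal epithelial markers had median interactions of 0.26, 0.22 and -1.45 in the batches. Keratins, the intermediate filaments of epithelia, had a median of -1.31 over 16 tested genes (-1.30, -1.31 and -1.30 in the batches). In all batches 7 were negative and 1 positive (20.9% and 20.7% of all genes). Their mean level in D2A1 2D was -2.45 log2 CPM, so the median rests on low counts there. The summed keratin level was lower in 3D in every batch in D2A1, with 230, 152 and 212 CPM in 2D and 174, 95.1 and 93.3 CPM in 3D, and likewise in D2.OR, with 1433, 1097 and 1615 CPM in 2D and 348, 504 and 854 CPM in 3D. With limma on log2(TPM + 1), which damps low genes, the median was -0.15. Krt16 rose in D2A1 from 0.142, 0.0325 and 0.0352 CPM to 0.666, 1.27 and 1.57 CPM, against 2.48 to 7.35 CPM in D2.OR (interaction -4.45, SE 0.73, edgeR adjusted p = 0.0797). Krt15 and Krt6a had at most 1 count per library in D2A1 2D and 4 to 28 in D2A1 3D, and under limma on log2(TPM + 1) their interactions were 0.07 and 0.45 in place of negative ones. Integrins and cell junctions had -0.34 over 43 genes, with -0.02, -0.57 and -0.43 in the batches. The desmoplakin gene Dsp rose in D2A1 from 0.445, 0.374 and 0.756 CPM to 1.39, 1.92 and 3.65 CPM, with 115 to 164 CPM in D2.OR 2D and 68.3 to 109 CPM in D2.OR 3D (interaction -2.75, SE 0.47, edgeR adjusted p = 0.0892). Epcam had -2.80 (SE 0.63) on levels at or below 0.184 CPM in D2A1, and Krt8 had -1.52 (SE 0.59). Krt8 was at 893, 724 and 1047 CPM in D2.OR 2D and 217, 310 and 538 CPM in D2.OR 3D, without overlap, a response of -1.31 that did not pass (edgeR adjusted p = 0.125), against 0.21 in D2A1. Collagens and matrix genes had 0.62 over 39 genes, with 1 in batch 1 and 0.16 and 0.18 in batches 2 and 3. The fibrillar collagen gene Col3a1 fell in D2A1 from 45.2, 55.5 and 18.2 CPM to 4.81, 5.81 and 2.54 CPM. In D2.OR it had 2429, 5781 and 3690 CPM in 2D and 3848, 1793 and 1248 CPM in 3D, higher in 3D in batch 1 and lower in batches 2 and 3 (interaction 2.23, SE 0.59).

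Dormancy-associated genes had a median of 0.23 over 36 tested members (0.24, 0.47 and 0.24 in the batches), with 13 positive and 4 negative in all batches (20.7% and 20.9% of all genes). DESeq2 called 7 positive and 2 negative (3.33% and 2.28% of all genes). Nr2f1, an orphan nuclear receptor used as a marker of dormant tumour cells, fell in D2A1 from 23.1, 37.2 and 31.4 CPM to 11.9, 9.44 and 8.20 CPM (-1.64 on the log2 scale, SE 0.23, edgeR adjusted p = 0.0207). In D2.OR it had 25.3, 37.4 and 28.4 CPM in 2D and 32.9, 27.2 and 20.4 CPM in 3D, so its interaction of 1.46 (SE 0.32, edgeR adjusted p = 0.11) went with lower levels in D2A1 3D. Atf6, a sensor of misfolded proteins, had the same form. It fell in D2A1 from 155, 239 and 198 CPM to 116, 103 and 104 CPM and was 81.7 to 102 CPM in D2.OR (interaction 0.93, SE 0.20). The stress response list around it had a median of 0.05 (0.07, 0.54 and -0.08 in the batches), and Herpud1, a gene of the degradation of misfolded proteins, had 0.72.

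Hydrocortisone and cholera toxin were in the 3D medium, and the targets of both signals were examined for that reason. Glucocorticoid targets had a median of 0.68 over 25 genes (0.39, 0.32 and 0.94 in the batches), with 12 positive in all batches (20.7% of all genes) and 5 positive DESeq2 calls (3.33% of all genes). Hsd11b1, which reactivates cortisone, fell in D2A1 from 0.708, 5.22 and 2.51 CPM to 0.525, 0.803 and 0.368 CPM and was 14.2 to 49.2 CPM in D2.OR (interaction 2.16, SE 0.53, edgeR adjusted p = 0.126). Glul, glutamine synthetase, had 0.35, 2.30 and 3.29 in the batches. Targets of cAMP and CREB had a median of -0.16, with 0.25, -0.17 and -0.26 in the batches. Sik1 and Dusp1 fell in D2A1 and had interactions of 1.10 (SE 0.25) and 1.41 (SE 0.41). YAP/TAZ targets, which respond to stiffness, had 0.22 over 27 genes (0.63, 0.38 and 0.22 in the batches), with Foxf2 rising in D2.OR (interaction 1.29, SE 0.31) and Lats2 falling in D2A1 (0.77, SE 0.20). Amino acid transporters had 0.49 over 26 genes (0.09, 0.83 and 0.17 in the batches), with Slc16a10 at 1.75 and Slc7a7 at 1.20. The 35 tested genes of alcohol and retinoid metabolism had a median of 0.05 (-0.23, 0.19 and 0.32 in the batches) beside the large values of Aldh1a1 and Aldh1a7.

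**Figure D4:**
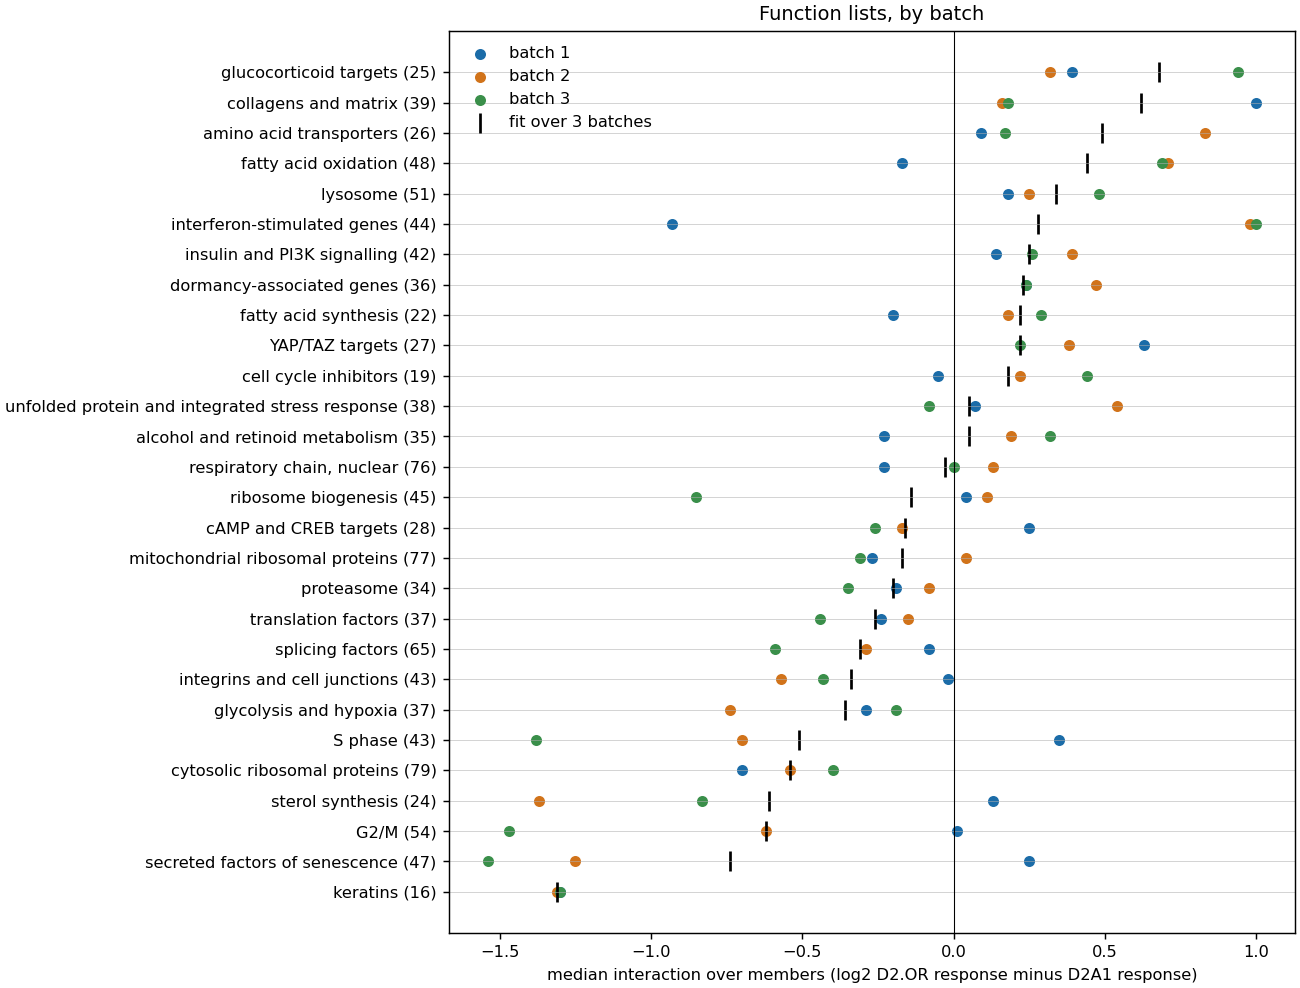
Median interaction over the tested members (number in brackets) of 28 function lists, in each batch (coloured points) and in the fit (black bar). Cytosolic ribosomal proteins and keratins belong to the lists that are negative with all 3 points, as do translation factors, splicing factors and others. S phase, sterol synthesis, secreted factors, fatty acid oxidation and interferon-stimulated genes are among the lists with batch 1 on the other side of 0 from batches 2 and 3.

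The batches thus gave different pictures of the interaction as a whole. Across genes, which are not independent replicates, the interaction of batch 2 correlated with that of batch 3 with Pearson's r = 0.603, but r was 0.27 between batches 1 and 2 and 0.173 between batches 1 and 3. The spread over genes (SD of the log2 value) was 0.881, 1.08 and 1.11 by batch. The response of D2A1 had an SD of 0.557 in batch 1 and of 0.888 and 0.981 in batches 2 and 3, whereas that of D2.OR was 0.697, 0.753 and 0.724. Without batch 1, edgeR called 2999 genes (17.8%; 1544 positive and 1455 negative), and 61.8% of these had the same sign in batch 1. Leaving out D2A1 2D replicate 1 alone gave 2509 calls, D2A1 3D replicate 1 gave 507 and D2.OR 3D replicate 1 gave 41, while any of the other libraries gave 1 to 3. The 4 edgeR genes were among the 2999. No gene passed without batch 2 or without batch 3, with 920 and 1238 genes at an unadjusted p under 0.05.

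**Figure D5:**
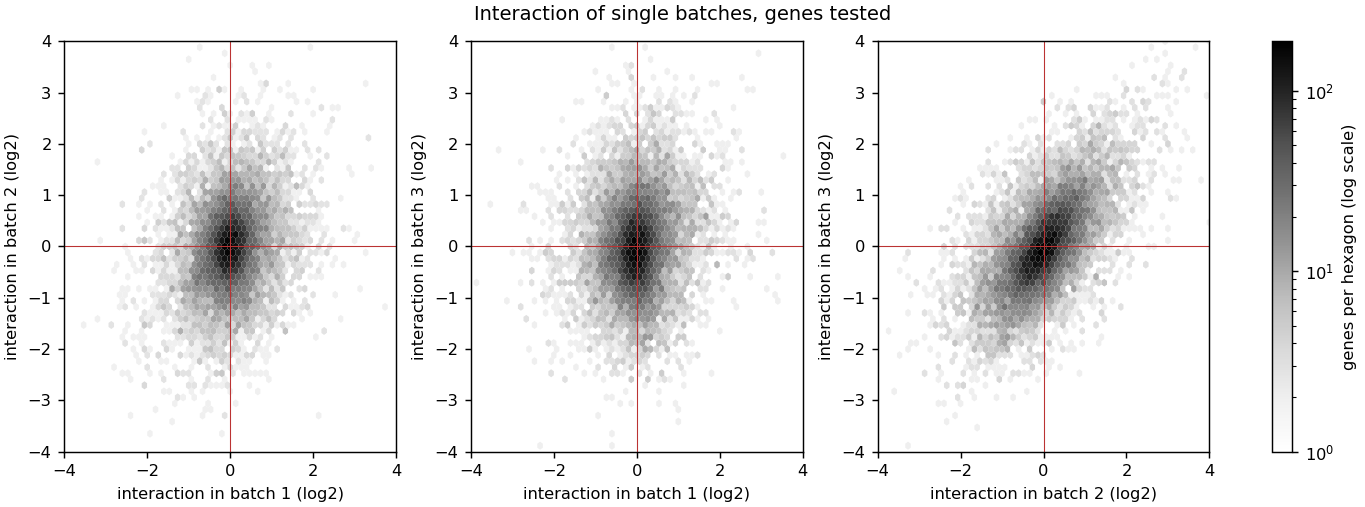
Interaction of single batches against each other, for the genes tested (log2 differences from CPM with a prior count of 2, shade for the number of genes, axes limited to 4 on either side). Batches 2 and 3 lie along the diagonal, and batch 1 shows a weaker relation with either.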

How the data were processed

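The 12 libraries of the series were used. Per the labels and the study's methods, the authors processed reads with FastQC 0.11.4, Trimmomatic 0.32, STAR 2.5.3 (GRCm38, GENCODE M15) and RSEM 1.3.0. The authors deposited expected counts, which share reads among genes and are not normalized, and TPM, which are scaled for length and depth. The deposited TPM served only for alternatives, and FPKM was not used. Expected counts were rounded to whole numbers. The main test was edgeR 4.0.16 (R 4.3.3, glmQLFit and glmQLFTest) with TMM scaling, the filterByExpr filter, the 4 groups and a batch block, over all 12 libraries, with Benjamini-Hochberg adjustment over 16823 genes and 6 residual degrees of freedom. The script was tested on simulated data. The study describes its repeats as biological in general, the labels do not describe the cultures behind each library, and p-values measure the spread between these samples. The replicate number marks the batch. Deviations from group means correlated at 0.076 to 0.51 (median 0.267) between libraries of 1 number in different groups. Between libraries of different numbers the values were -0.43 to 0.3 (median -0.195), so the ranges overlapped. CPM are TMM-scaled. Batch values and list levels are log2 CPM with a prior count of 2. Genes named were those called, the 8 per direction with the smallest p (same sign in all batches, at least 5 CPM in a group, no clone names), those called in both lines with opposite signs, the 2 of each list with the smallest p, and Mki67, Cdkn1b, Cdkn2a, Lmnb1, Glb1 and Nr2f1. The members and the 28 function and 6 marker lists were chosen with earlier results of these data known, and 22 genes, like the other members of the lists that are named as called, were added after their values were seen. Alternatives used DESeq2 1.42.0, limma 3.58.1 (also voom with sample weights), other scalings and filters, and batches or libraries left out. Sequences are from RefSeq (GRCm38.p6), and 11148 tested genes have a promoter window. A few genes that the naming rule covers are not reported here.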

Additional observations from a re-analysis of the deposited data

Results flagged for a closer look

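The difference between the culture responses of the lines, tested directly as the interaction, passed in edgeR for 4 genes. The interaction (log2) was 7.21 for Aldh1a7, 3.18 for Chst1, 3.70 for Sstr2 and -2.27 for Dnajc22, with the same sign in all 3 batches for each. No outlier test was run within the groups, which hold 3 libraries each, and the effect of leaving out single libraries is given above.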

How the results depend on the processing

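Across 25 alternatives, 24 of them planned, the values of single named genes kept their direction and side of the threshold in 2060 cases, gained a call in 344, lost one in 41 and reversed in 12. The interaction count of 4 became 944 with DESeq2, 241 with limma-voom, 13 (9 positive, 4 negative) and 9 with limma on log2(TPM + 1) and log2(TPM + 0.1), 96 with no filter on low counts, and 7 with an offset for gene length, which was chosen after seeing the data. It was 3, all negative, with at least 10 counts in every library. With batches or single libraries left out it ranged from 0 to 2999. In D2.OR the count of 273 became 1239 with DESeq2, 575 with limma-voom, 415 with no filter and 159 with at least 10 counts, and ranged from 0 to 1412 with batches or libraries left out. In D2A1 the count of 586 became 3581, 3542, 1135 on log2(TPM + 0.1) and 1117 with no filter, and ranged from 0 to 6120. The counts of 0 came with 920 and 1238 genes (interaction, without batch 2 or 3), 1221 (D2.OR) and 1530 to 3522 (D2A1) under 0.05 before adjustment. Without the replicate block, edgeR called 0 genes in the interaction (2231 under 0.05 before adjustment), 20 in D2.OR and 52 in D2A1. The values that reversed were Krt15 (0.07) and Krt6a (0.45) on log2(TPM + 1), and Cdkn2a without the block (-0.01). With batches or libraries left out, the range crossed 0 for Cdkn1b (-0.15 to 0.61, below 0 without batch 3 and at -0.06 without D2A1 2D replicate 3), Cdkn2a (-0.07 to 0.19) and Krt18 (-1.01 to 0.15, above 0 without batch 1). List medians moved beyond their spread in 37 cases and not in 663. The cause was not tested. Limits are the 3 replicates per group, the weak relation of batch 1 to the others, and the median of all genes, which was 0.13 on log2(TPM + 0.1).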
